A study of Mus musculus with 38 samples.

Results

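Bivalent regions are stretches of chromatin that carry H3K4me3, a mark of active promoters, together with H3K27me3, the mark of Polycomb repression. Here 8850 of the 21921 consensus H3K4me3 pieces of IκBα-WT cells on chromosomes 1 to 19 were bivalent. A piece was a stretch of bases called for H3K4me3 in at least 2 of the 3 WT lists. It was taken as bivalent when it was under 2000 bp wide and overlapped by at least 1 bp the WT consensus of H3K27me3, built in the same way. The regions were thus chosen by the measured WT calls of both marks. H3K4me3 and H3K27me3 in IκBα-KO cells are therefore described below without a test, and only H3K27ac, H3K4me1 and H3K9me3, which the choice did not use, are tested. The comparison set was the other 12306 WT consensus H3K4me3 pieces under 2000 bp.

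The cells were mouse embryonic stem cells (mESCs) of the ES-E14TG2a line, kept in serum and LIF, the cytokine that holds them in naïve pluripotency, and taken at 0 h of differentiation. IκBα-KO cells lacked a working Nfkbia, the gene of the NF-κB inhibitor IκBα, after CRISPR editing of its first exon. IκBα-WT cells had gone through the same procedure with a non-targeting guide RNA. The study's methods describe the replicates as separate clones. There were 3 ChIP-seq libraries per genotype for each of 5 histone marks, 30 in all, and p-values measure the spread between these libraries. The files held calls against 1 input library per genotype and experiment. No library measured Nfkbia RNA or protein, so the calls themselves do not check the knockout.

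In embryonic stem cells, bivalent chromatin is known from the CpG-rich promoters of developmental regulators, which are silent or nearly so until a lineage is chosen. Polycomb repressive complex 2 (PRC2) writes H3K27me3, and complexes of the Trithorax family write H3K4me3. A bivalent region without its H3K27me3 carries the mark of an active promoter, and one without its H3K4me3 that of a Polycomb-repressed gene.

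The fate of a region in the IκBα-KO cells was read from the consensus of the 3 KO lists, again bases called in at least 2 of 3. As single examples, 200 bases are given for the gene that ranked first by width for H3K4me3 alone (Cdc42bpb) and for H3K27me3 alone (Grm3). The same is given for 2 developmental genes that kept both marks (Hoxb9 and Gbx2). Each stretch is the one nearest the centre of the region with no annotated UTR base, written 5′ to 3′ on the strand of the gene (GRCm38.p6 assembly of RefSeq), with every CpG in capitals.
Cdc42bpb: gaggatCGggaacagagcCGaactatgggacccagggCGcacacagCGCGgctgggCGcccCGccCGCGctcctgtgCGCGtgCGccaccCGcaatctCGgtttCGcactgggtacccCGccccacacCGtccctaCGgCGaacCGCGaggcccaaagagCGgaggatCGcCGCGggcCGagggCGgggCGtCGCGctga
Grm3: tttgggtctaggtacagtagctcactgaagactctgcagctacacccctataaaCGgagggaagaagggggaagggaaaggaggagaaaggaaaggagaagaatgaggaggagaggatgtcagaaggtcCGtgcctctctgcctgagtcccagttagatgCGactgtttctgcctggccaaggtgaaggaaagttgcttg
Hoxb9: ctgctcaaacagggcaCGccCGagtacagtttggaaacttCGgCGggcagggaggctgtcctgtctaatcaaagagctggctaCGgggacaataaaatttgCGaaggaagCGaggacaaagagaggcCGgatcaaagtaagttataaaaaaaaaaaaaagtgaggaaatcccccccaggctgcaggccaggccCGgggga
Gbx2: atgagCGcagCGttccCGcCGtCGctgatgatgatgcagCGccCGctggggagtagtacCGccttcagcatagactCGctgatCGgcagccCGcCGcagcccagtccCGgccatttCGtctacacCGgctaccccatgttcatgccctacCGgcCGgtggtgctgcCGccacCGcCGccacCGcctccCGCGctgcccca
The Cdc42bpb stretch (chr12:111377719-111377918, minus strand) lies directly before the outermost annotated start of the gene, which encodes a kinase that acts downstream of Cdc42. It held 30 CpG and 73.5% G and C. The Grm3 stretch (chr5:9725559-9725758, minus strand), at the start of a metabotropic glutamate receptor gene, held 3 CpG and 52% G and C. The Hoxb9 stretch (chr11:96271923-96272122, plus strand) runs across the end of the first exon and held 9 CpG. The Gbx2 stretch (chr1:89930556-89930755, minus strand) begins at the first codon of this homeobox gene and held 23 CpG. In the 500 bp around the centre, Cdc42bpb had 16.2 CpG per 100 bp, against a median of 7.0 for regions with H3K4me3 alone. Grm3 had 1.6, against a median of 5.0 for H3K27me3 alone. Neither gene is thus typical of its fate in CpG.

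The bivalent regions were short and rich in CpG. Their median width was 614 bp, against 697 bp for the other H3K4me3 pieces, and 624 of them were under 200 bp. The 500 bp around their centres held a median of 7.4 CpG per 100 bp and 64.8% G and C, against 4.8 CpG and 57.2% at the other pieces. H3K27me3 covered 92.0% of their bases, and 7678 of the 8850 lay under it along their whole width, within H3K27me3 domains of a median 10400 bp. The median H3K4me3 fold enrichment over input, averaged over the WT lists, was 6.83, below the 8.45 of the other pieces. A protein-coding transcript started within 1000 bp of 6286 regions (71.0%), against 76.9% of the other pieces.

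At the edges of the rule, the widest regions with a coding start were those of Bdh1, a ketone body enzyme (1999 bp), Sox17, an endoderm regulator (1998 bp), and Zfp592 (1993 bp). All 3 kept both marks in the KO. Just over the width limit, and not counted, were the pieces of Pde5a (2001 bp) and of Fahd1 and Hagh (2005 bp) among 185 such wide bivalent pieces. The thinnest overlaps with H3K27me3 were at Svop, with 1 bp, and at Ly6g6c and Mpig6b, which share a piece, with 4 bp. Acaa2, Clec11a and Flii had pieces 1, 8 and 9 bp away from H3K27me3 and were left out. These values are given as a description of the rule.

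Most bivalent regions carried both marks in the IκBα-KO cells as well. Of the 8850, 6948 (78.5%) kept both, 1421 (16.1%) kept only H3K27me3, 436 (4.93%) kept only H3K4me3 and 45 (0.508%) kept neither. Loss of the H3K4me3 call was thus counted more often than loss of the H3K27me3 call. The marks were called by different programs, and the regions had a median of 614 bp within H3K27me3 domains of a median 10400 bp. An overlap of 1 bp counted as kept, so the losses of the marks are not on one scale. Counted list by list, 6422 regions had an H3K4me3 call in 3 of 3 KO lists, 984 in 2, 665 in 1 and 779 in none. For H3K27me3, 8058 regions were called in 3 of 3 KO lists, 312 in 2, 228 in 1 and 252 in none. Only 12 regions had no call of either mark in any KO list. The sizes of the smaller fates depended on single libraries. Without KO replicate 3, 2139 regions kept only H3K27me3. With the regions picked from the other pair of WT libraries, that count was 906 of 7880 without WT replicate 1 and 840 of 7694 without WT replicate 3, and the count for H3K4me3 alone was 278 without WT replicate 2 and 278 without WT replicate 3. The count with neither mark was 14 to 16 without a WT library and 87 to 119 without a KO library.

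These shares need the rate at which any call is found again. Among all 21156 WT consensus H3K4me3 pieces under 2000 bp, 10.8% had no KO consensus H3K4me3. The bivalent regions kept H3K4me3 in 83.4%, the other pieces in 93.3%. For H3K27me3 the order was the opposite. Of all 43394 WT consensus H3K27me3 pieces, 17.4% had no KO consensus H3K27me3. The bivalent regions kept it in 94.6%, against 80.5% of the 37210 H3K27me3 pieces away from H3K4me3. The first share counts H3K4me3 pieces and the second H3K27me3 pieces, and the sets were not matched for H3K27me3 domain width. Short domains were found again less often, as given below, so this order may go with domain width, which was not tested. The rule itself favours lost calls in the KO, since a region had to be called in the WT. The mirror look-up, from regions bivalent in the KO back to the WT lists, therefore stands beside it. Of 8358 KO-bivalent pieces, 82.9% had both marks in the WT, 11.5% H3K27me3 alone, 4.46% H3K4me3 alone and 1.15% neither. The KO-bivalent pieces were 36.3% of 23049 KO pieces under 2000 bp, and the WT-bivalent ones 41.8% of 21156 WT pieces. H3K27me3 alone was the one class that was larger in the forward direction by more than a point (16.1% against 11.5%).

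The same order was seen when regions were picked from 2 WT libraries and looked up in libraries that the choice had not used. With WT replicate 3 held out, 95.6% of 7694 regions were called for H3K4me3 in it, and 84.6%, 89.1% and 89.7% in KO replicates 1, 2 and 3. With WT replicate 1 held out, the held-out share was 92.8% and the KO shares were 83.9%, 88.7% and 89.2%. With WT replicate 2 held out, it was 88.7%, against 82.1%, 87.2% and 87.6%. The held-out WT library was thus above each KO library in all 3 cases, with the smallest margin in the last. The regions were still chosen by WT calls of both marks, and the 3 cases share libraries and regions. No such look-up was run from regions picked in the KO, so this order is a description only. At the other H3K4me3 pieces, held-out WT shares were 90.8 to 95.7% and KO shares 92.4 to 96.7%, so the genotypes overlapped. For H3K27me3 at the bivalent regions, held-out WT shares were 96.5 to 98.1% and KO shares 95.3 to 96.3%.

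The fates differed with the width of the H3K27me3 domain that the region lay in. In domains of up to 2 kb (295 regions), 32.2% kept only H3K4me3 in the KO. This share was 14.0% for domains of 2 to 5 kb, 3.58% for 5 to 10 kb, 0.943% for 10 to 20 kb and 0.458% for the 1966 regions in domains over 20 kb. The share that kept only H3K27me3 ran the other way, from 7.46% through 10.7%, 14.3% and 16.2% to 23.6%. The regions themselves were narrower in wide domains, with a median of 771 bp in the smallest domains and 508.5 bp in the widest. In the mirror look-up from the KO, H3K4me3 alone went from 20.7% in the smallest to 0.841% in the widest domains. H3K27me3 alone lay between 9.31% and 13.9%, without the steady climb. Short H3K27me3 domains were thus found again less often in either direction, and the high share of H3K27me3 alone in the widest domains was larger in the WT-to-KO direction.

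**Figure D1:**
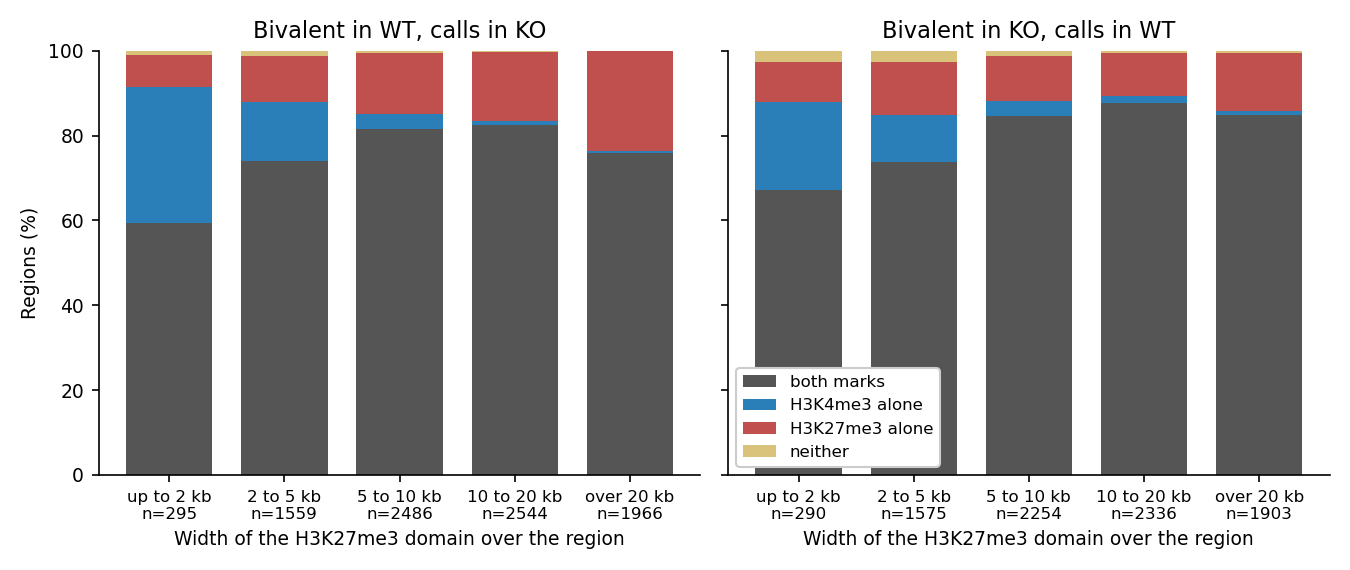
Share of bivalent regions (y axis, percent) with both marks, H3K4me3 alone, H3K27me3 alone or neither in the other genotype, by the width of the H3K27me3 domain over the region (x axis, with the number of regions). Left, regions bivalent in IκBα-WT and looked up in IκBα-KO, where H3K27me3 alone reaches 23.6% in the widest domains. Right, the mirror, where it reaches 13.9%.

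Regions that kept only H3K27me3 were the weak and narrow ones. Their median width was 269 bp and their median WT fold enrichment 5.03, against 707 bp and 7.40 for the regions that kept both marks. They held 5.0 CpG per 100 bp against 8.0, and 47.2% of them lay at a coding start against 75.3%. Regions that kept only H3K4me3 had a median width of 753 bp, a WT fold enrichment of 8.45 and 7.0 CpG per 100 bp, 84.2% lay at a coding start, and their H3K27me3 domains had a median of 3400 bp against 10400 bp for the regions that kept both. The 45 regions with neither mark had a median width of 233 bp and 3.8 CpG per 100 bp.

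The share of regions that kept the H3K4me3 call differed strongly with WT signal, width and CpG in both sets. All 21156 pieces were sorted by WT fold enrichment into 4 bands of equal number. In the lowest band the bivalent regions kept H3K4me3 in 62.2% and the others in 79.8%. In the next bands these shares were 84.0% and 91.3%, 97.7% and 98.5%, and 99.6% and 99.8%. By width, the narrowest band (up to 362 bp) gave 53.1% and 76.7%, the next 86.1% and 96.0%, and the widest (over 1024 bp) 99.6% and 100%. By CpG, the band of up to 3.8 CpG per 100 bp gave 48.4% and 85.8%, and the band over 8.6 gave 97.2% and 99.7%. The gap between the sets was thus small at strong, wide and CpG-rich regions, and signal still varies within a band. These shares are over regions and carry no test.

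**Figure D2:**
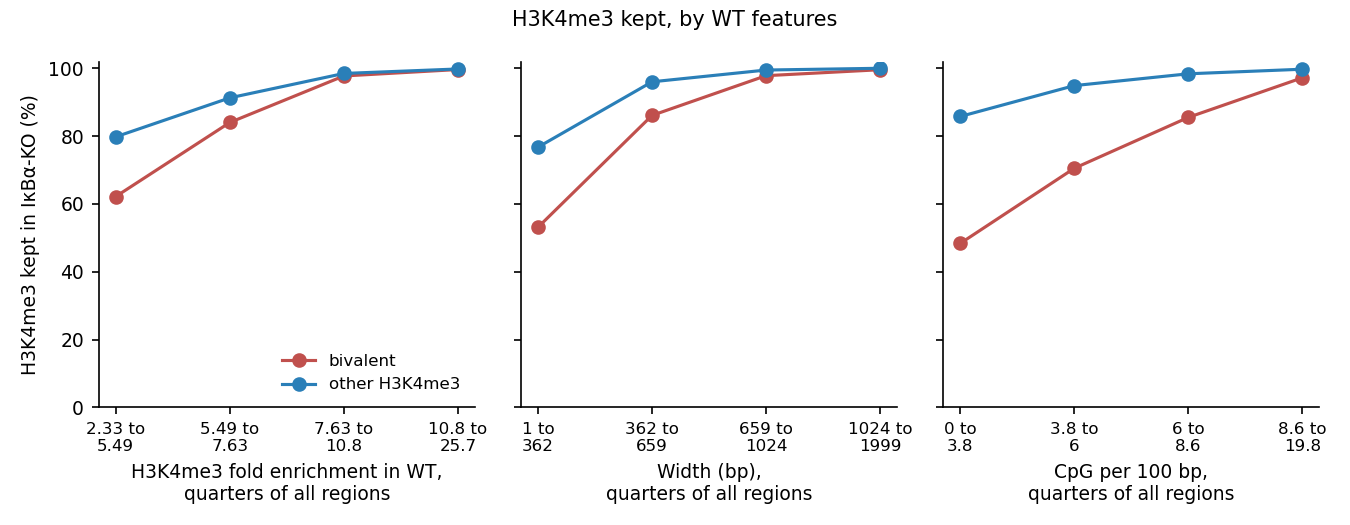
Share of WT consensus H3K4me3 pieces that kept H3K4me3 in the IκBα-KO consensus (y axis, percent), for bivalent regions (red) and other pieces (blue), in 4 bands of equal number by WT fold enrichment, width and CpG per 100 bp (x axes). The red line lies under the blue one in every band, by most in the band with the fewest CpG (48.4% against 85.8%).

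One stretch of the genome stood apart. On chromosome 12 from 100 Mb on, the KO input held 0.494 times the WT input reads (median over 126 regions). Input ratios here and below come from the input libraries of H3K4me1 and H3K27ac. The H3K4me3 and H3K27me3 calls were made against other input libraries. There 50.8% of the regions kept both marks, 31.0% kept only H3K27me3, 12.7% only H3K4me3 and 5.56% neither, which makes 7 of the 45 regions with neither mark. On the rest of chromosome 12, with a ratio of 0.962, 80.7% kept both. On chromosome 8, where the ratio was 1.34, 82.6% kept both. Genotype and this input difference cannot be told apart within the stretch. Without it, 78.9% of 8724 regions kept both marks.

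A bivalent region lay within 1000 bp of a start of 5012 of the 20780 protein-coding genes (24.1%), which is 39.4% of the 12735 genes with any WT consensus H3K4me3 there. Genes with several regions, 1208 in number, are described by the widest. By this region, 4370 genes kept both marks, 326 (6.5%) kept only H3K4me3, 307 (6.13%) only H3K27me3 and 9 neither. Both percentages are the background for the gene lists below.

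The stem cell identity of the cultures was checked on marker genes by the number of lists with a call at the start. All 10 markers of embryonic stem cells, among them Pou5f1, Nanog and Sox2, had H3K4me3 and H3K27ac in 3 of 3 WT lists, and 2 of them, Esrrb and Klf4, also had H3K27me3 in 3 of 3. The 4 markers of primitive endoderm, 3 of trophectoderm, 3 of mesoderm and 4 of fibroblasts all had H3K27me3 in 3 of 3 WT lists. H3K27ac was also in 3 of 3 WT lists at 4, 2, 2 and 2 of them, in this order. H3K27ac alone thus did not set the stem cell markers apart. Many of these also carried H3K4me3, for example Gata4, Sox17, Cdx2 and T in 3 of 3, while Elf5 and Col1a2 were in 0 of 3 H3K4me3 lists. A mark on a minority of cells and a mark on all cells cannot be told apart in such bulk libraries.

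The developmental regulators were, as a group, mostly bivalent. Over 9 lists of regulators and ligands with 300 genes in all, 232 genes (77.3%) had a bivalent region. Of these, 202 kept both marks, 30 kept only H3K27me3 (12.9%), and none kept only H3K4me3 or neither. Among the other 4780 genes with a bivalent region, 5.79% kept only H3K27me3 and 6.82% only H3K4me3. The H3K27me3 domains of the listed genes were wide, with a median of 28200 bp against 8400 bp for the others. Of the 30 genes, 15 had an H3K4me3 call in 0 of 3 KO lists and 13 in 1 of 3. The remaining pair was Pax9 and Foxf2, whose KO calls over the region did not overlap each other. Among the 277 other genes with H3K27me3 alone, 139 had an H3K4me3 call in 0 of 3 KO lists and 137 in 1 of 3.

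Hox genes pattern the body axis. A bivalent region was present at 27 of 39 Hox genes, and 24 of these kept both marks. The 3 that kept only H3K27me3 lay in one domain of 179600 bp over the HoxC cluster. At Hoxc11 (chr15:102954519-102955200) the H3K4me3 fold enrichment over input was 4.92, 3.99 and 3.30 in WT replicates 1, 2 and 3, and no KO list held a call. At Hoxc8 (chr15:102990660-102990971) the WT values were 4.28, no call and 2.72, and at Hoxc6 (chr15:103009542-103009820) 5.18, no call and 5.38, again with no KO call. All 3 were weak calls, and at Hoxc8 and Hoxc6 one WT list lacked them too. H3K27me3 over the domain stood at 125, 140 and 134 reads per kb in the WT and 131, 132 and 106 in the KO. By contrast Hoxb9 (chr11:96271463-96272582), in a domain of 137600 bp, had fold enrichments of 7.24, 4.93 and 5.58 in the WT and 4.97, 8.76 and 5.83 in the KO, so the genotypes overlapped.

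Of 96 homeobox regulators outside the Hox clusters, 81 had a bivalent region, and 9 of these kept only H3K27me3, among them Lhx6, Nkx2-1, Otx2 and Tlx2. At Nkx2-1 (chr12:56534567-56535059), needed for lung, thyroid and forebrain, the fold enrichment was 3.77, 5.01 and 6.98, with no KO call. Reads per kb, here and below, are those of the whole calls over a region, not of the region alone, and are not scaled for depth. How many of all bivalent regions had no overlap between genotypes, in these values or in fold enrichment, was not counted. Single genes without overlap below are therefore examples and are not set apart from the rest. The H3K27me3 calls over Nkx2-1, in a WT domain of 31800 bp, had 107, 118 and 103 reads per kb in the WT. In the KO they had 82.8, 107 and 104. The Polycomb mark was thus called on both sides, with overlapping values over the calls, while the H3K4me3 call was absent from the KO. The level within the region itself was not measured. At Lhx6 (chr2:36103636-36104249), an interneuron regulator, WT values were 5.03, 4.39 and 5.50, and KO replicate 3 alone had a call, at 4.48.

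Of the 9 Pax genes, 7 were bivalent, and 2 of these lost the H3K4me3 consensus. Pax7 (chr4:139833224-139833604), a muscle and neural crest regulator, had fold enrichments of 7.62, 5.07 and 6.41 in the WT and no call in the KO. Pax9 (chr12:56696188-56697292) was a different case, with 5.40, 5.81 and 3.69 in the WT and 5.16, 3.79 and 4.27 in the KO, but with no base shared by 2 KO calls. It is counted as a loss only because the consensus is made of shared bases. Pax6 (chr2:105674541-105675616), the eye and forebrain regulator, kept both marks, at 5.98, 4.50 and 4.86 in the WT and 5.97, 7.46 and 7.11 in the KO.

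Among 20 proneural bHLH genes, 13 had a bivalent region, and only Neurod1 did not keep both marks. At Neurod1 (chr2:79456359-79456694) H3K4me3 was called in WT replicates 1 and 3, at 4.36 and 5.18, and in KO replicate 2, at 3.64. Neurog2 (chr3:127633092-127634717), which drives neurogenesis, kept both, at 10.1, 9.84 and 13.6 in the WT and 11.5, 7.51 and 7.96 in the KO. Bhlhe22 (chr3:18054410-18056013) kept both with all 3 KO values, 5.30, 8.40 and 8.34, below the WT values of 12.1, 13.1 and 9.70.

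Of 41 Gata, Sox and Fox genes, 34 were bivalent, and Foxb1, Foxf2, Foxl1, Foxl2 and Sox14 kept only H3K27me3. At Foxb1 (chr9:69759116-69760199) the fold enrichment was 7.04, 6.57 and 6.07 in the WT and 6.07 in KO replicate 1, with no call in the other KO lists. The Sox14 region was only 125 bp wide and was called in 2 WT lists, at 4.26 and 4.50. The T-box list had 9 bivalent genes of 16, and Tbx4, a hindlimb regulator, was the one that kept only H3K27me3. Tbx3 (chr5:119670699-119671519), which supports self-renewal, kept both, but its H3K27me3 was 81.0, 90.8 and 72.0 reads per kb in the WT and 44.8, 43.1 and 49.0 in the KO, with no overlap. At Eomes (chr9:118477798-118479746), a mesendoderm regulator, H3K4me3 ran from 7.26 to 10.4 in the WT and from 11.1 to 17.6 in the KO, likewise without overlap.

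The share of genes with H3K27me3 alone was highest among the Wnt ligands, 5 of 17 bivalent genes, namely Wnt1, Wnt5a, Wnt6, Wnt10b and Wnt16. Pax genes, with 2 of 7, and formative and primed epiblast genes, with 4 of 15, were close, so this rank rests on few genes. Wnt1 (chr15:98789692-98790323) and Wnt10b (chr15:98776285-98776774) are neighbours. At Wnt1 the fold enrichment was 4.11, 5.90 and 4.50 in the WT and 5.24 in KO replicate 2 alone. At Wnt5a (chr14:28505588-28506227), a non-canonical ligand, it was 6.37, 5.63 and 11.2 in the WT and 3.06 in KO replicate 2 alone. At each of Wnt1, Wnt5a, Wnt6 and Wnt10b, 1 KO list still held a call. H3K27me3 at Wnt6 (chr1:74770963-74771463) was 119, 124 and 123 reads per kb in the WT and 89.5, 76.2 and 74.0 in the KO.

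The TGF-beta list (ligands and inhibitors) had 23 bivalent genes of 33, and Inhba and Lefty1 kept only H3K27me3. Lefty1 (chr1:180934987-180935211), a Nodal inhibitor expressed in mESCs, had a region of 225 bp in a short H3K27me3 domain of 1800 bp, with weak WT calls of 3.02 and 2.72 in 2 lists. Of 21 bivalent genes among the 27 FGF, Hedgehog and Notch ligands, Dll3 and Shh kept only H3K27me3. The Shh region was 144 bp wide and was called in 2 WT lists, at 5.47 and 4.53, and in KO replicate 3, at 3.77. Dll1 (chr17:15374477-15376091), a Notch ligand, kept both marks, at 7.43, 5.86 and 11.8 in the WT and 10.3, 10.3 and 11.5 in the KO.

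Pluripotency genes were mostly not bivalent. Of 32 naive and general pluripotency genes, 7 had a bivalent region and all 7 kept both marks, while 22 had H3K4me3 without H3K27me3. Gbx2 (chr1:89929802-89931715), a LIF target, was in 3 of 3 lists of both marks on both sides, and its H3K27me3 was 86.9, 95.4 and 98.1 reads per kb in the WT and 69.4, 69.6 and 65.7 in the KO, without overlap. Of 22 formative and primed epiblast genes, 15 had a bivalent region. Krt18, Lef1, Lefty1 and Otx2 kept only H3K27me3, and Etv4 kept only H3K4me3. At Otx2 (chr14:48673996-48674246) the region was 251 bp wide, with WT calls of 5.52 and 5.95 in 2 lists and none in the KO. At Etv4 (chr11:101783902-101784329), an ETS factor, the H3K27me3 call in the WT had 27.1 and 20.7 reads per kb in 2 lists and was absent from the KO, while H3K4me3 was called in all 6 lists.

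The remaining lists differed from each other. Of 7 cell cycle inhibitors, 6 were bivalent, and 5 of these kept both marks. At Cdkn1b (chr6:134919676-134921512), which encodes p27, H3K27me3 was 40.5, 35.3 and 41.2 reads per kb in the WT and 33.3 in KO replicate 2 alone, and H3K4me3 stood at 11.4, 12.2 and 12.5 against 12.5, 14.1 and 13.6. At Cdkn1a (chr17:29093730-29095661), which encodes p21, the H3K4me3 values were 14.4, 15.2 and 16.4 in the WT and 7.62, 7.66 and 11.9 in the KO, without overlap, and both marks were kept. Of 11 annotated PRC2 genes, Aebp2 alone had a bivalent region, 17 bp wide. Of 14 annotated housekeeping genes, Gusb and B2m had one.

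**Figure D3:**
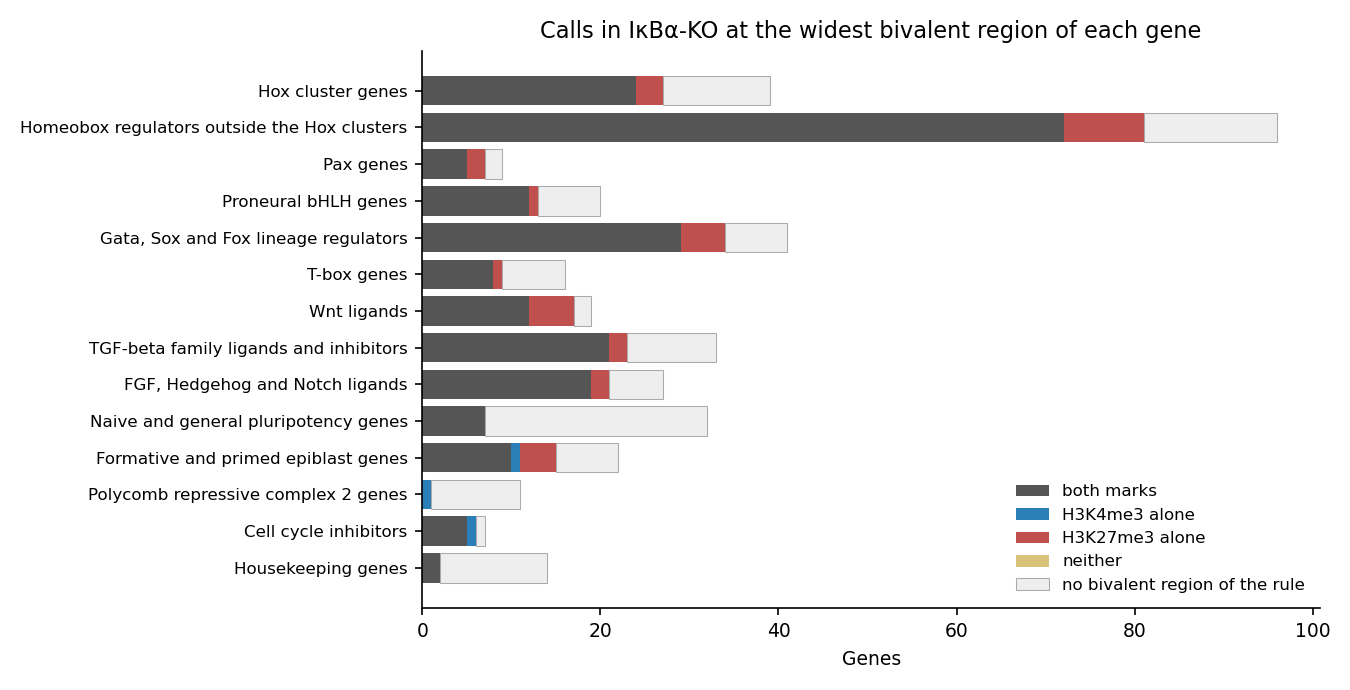
Number of annotated genes (x axis) in each list (y axis) by the marks at their widest bivalent region in the IκBα-KO lists, with genes without such a region in light grey. Red, H3K27me3 alone, is seen in all 9 lists of developmental regulators and ligands, with 9 of 81 for homeobox genes outside the Hox clusters and 5 of 17 for the Wnt ligands. Blue, H3K4me3 alone, is seen for 1 gene each among the formative, PRC2 and cell cycle lists.

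The clearest single genes were taken as those called for both marks in 3 of 3 WT lists and for the lost mark in 0 of 3 KO lists. Of 156 genes with H3K4me3 alone and 3 of 3 WT calls, 76 met this. The widest were Cdc42bpb, Epb41l4a, Wdr20, Mpc1, Hsph1 and Elmsan1. Mpc1 (chr17:8282950-8284866) encodes a subunit of the mitochondrial pyruvate carrier. Its H3K27me3 call had 44.0, 47.5 and 37.9 reads per kb in the WT and was absent from the KO, and its H3K4me3 fold enrichment was 17.0, 15.4 and 13.3 against 8.35, 14.0 and 11.1. Hsph1 (chr5:149634961-149636872), a heat shock protein gene, had 50.7, 37.0 and 43.1 H3K27me3 reads per kb in the WT, with H3K4me3 at 8.39, 15.2 and 16.3 against 18.2, 19.2 and 22.6. These H3K27me3 domains were short, 1200 bp at Mpc1 and 1600 bp at Hsph1. Cdc42bpb and Wdr20 lie on the stretch of chromosome 12 with fewer KO input reads, at KO to WT input ratios of 0.508 and 0.490.

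Of 141 genes with H3K27me3 alone and 3 of 3 WT calls, 57 had no H3K4me3 call in any KO list. The widest were Grm3, Rxfp3, Epha6, Hoxc11, and Cyp24a1 and Pfdn4, which share a region. At Grm3 (chr5:9725100-9726218) the H3K4me3 fold enrichment was 3.22, 7.49 and 6.10 in the WT, and H3K27me3 was 54.0, 47.9 and 48.5 reads per kb in the WT and 75.7, 58.0 and 44.1 in the KO. No H3K27ac was called there in any library. At Rxfp3 (chr15:11036547-11037455), a relaxin family receptor gene, H3K4me3 stood at 8.39, 7.12 and 7.90 in the WT. Both are poor in CpG for bivalent regions, with 1.6 and 4.8 per 100 bp. At the region of Cyp24a1 and Pfdn4 the KO to WT input ratio was 0.402. No gene with neither mark met the same condition.

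H3K27ac, a mark of active promoters and enhancers, was less frequent at bivalent regions than at other H3K4me3 pieces. It lay over 75.3%, 74.4% and 75.8% of the bivalent regions in the WT libraries and 69.4%, 69.8% and 67.3% in the KO libraries. The other pieces had 97.8% ± 0.199 (SD, n = 3) in the WT and 96.9% ± 0.344 (n = 3) in the KO. The bivalent regions were lower than the other pieces in 6 of 6 libraries, with a mean difference of -25.3 points (exact sign-flip permutation test, two-sided, p = 0.03125). This p is the smallest that 64 sign assignments allow.

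Every KO library had a lower H3K27ac share at the bivalent regions than every WT library, with means of 68.8% ± 1.34 and 75.1% ± 0.681 (SD, n = 3 each) and a difference of -6.31 points (exact permutation test, two-sided, p = 0.1, the smallest that 3 against 3 allows). The KO lists held fewer calls, 44977 to 47975 against 51932 to 57645. They did not hold less sequence. By reads in calls and reads per kb of all calls, each KO list covered more sequence than each WT list. With the 44977 top-ranked calls taken from each list, the difference was -2.10 points. At the other pieces it was -0.902 points with the full lists and -0.119 points with equal numbers of calls (exact permutation tests, p = 0.1 and 0.7). The difference between the sets was itself lower in the KO than in the WT, by -5.41 points (exact permutation test, p = 0.1, computed after seeing the data), or -1.98 points with equal numbers of calls. How much of the lower share goes with the number or the length of the calls was not tested.

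The lower H3K27ac share was seen in each fate. Regions that kept both marks went from 75.8% in the WT to 69.9% in the KO, and regions with H3K27me3 alone from 64.5% to 55.4%. Regions with H3K4me3 alone had 97.4% and 94.95%, near the values of the other H3K4me3 pieces, and the 45 regions with neither mark had 92.6% and 78.5%. Each of these differences had an exact permutation p of 0.1. By domain width, the WT share was 89.9% in domains up to 2 kb, 71.3% in domains of 5 to 10 kb and 76.8% in domains over 20 kb, and the KO share was lower in each band, at 84.3%, 64.4% and 69.7%. Of the 8850 regions, 242 (2.73%) had H3K27ac in 3 of 3 WT and 0 of 3 KO lists, and 27 (0.305%) the opposite. At the other 12306 pieces these numbers were 39 (0.317%) and 7. Among the 232 developmental genes, 184 had H3K27ac in 3 of 3 WT lists at the widest region (79.3%) and 156 in 3 of 3 KO lists (67.2%). Among the other 4780 genes with a bivalent region these shares were 67.1% and 60.2%, lower in the KO as well. Neurog2 was such a case, with 41.6, 42.3 and 50.4 H3K27ac reads per kb in the WT and no call in the KO.

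H3K4me1, a mark of enhancers and promoter flanks, was called at nearly all bivalent regions. WT libraries had them in 99.2% ± 0.0681 of regions and KO libraries in 98.8% ± 0.0985 (SD over 3 libraries each), a difference of -0.448 points (exact permutation test, two-sided, p = 0.1). It was -2.84 points when a call had to cover at least 50% of the region, and -0.163 points without chromosomes 2, 8 and 12. The other pieces had 94.3% in the WT and 90.1% in the KO. The bivalent regions were higher than the other pieces in 6 of 6 libraries, by a mean of 6.77 points (exact sign-flip permutation test, two-sided, p = 0.03125), and by 29.2 points when at least 50% had to be covered. The gap was 3.69 points wider in the KO (exact permutation test, p = 0.1, computed after seeing the data). H3K9me3, the heterochromatin mark, lay over 1.99 to 2.38% of the bivalent regions and 2.76 to 3.42% of the other pieces, with a mean difference of -0.880 points (exact sign-flip permutation test, two-sided, p = 0.03125, also computed after seeing the data). This difference was -0.405 points with equal numbers of calls (p = 0.03125 by the same exact test), and at an FDR of 0.001 or at transcript starts alone it was -0.542 and -0.664 points, both with an exact p of 0.0625.

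**Figure D4:**
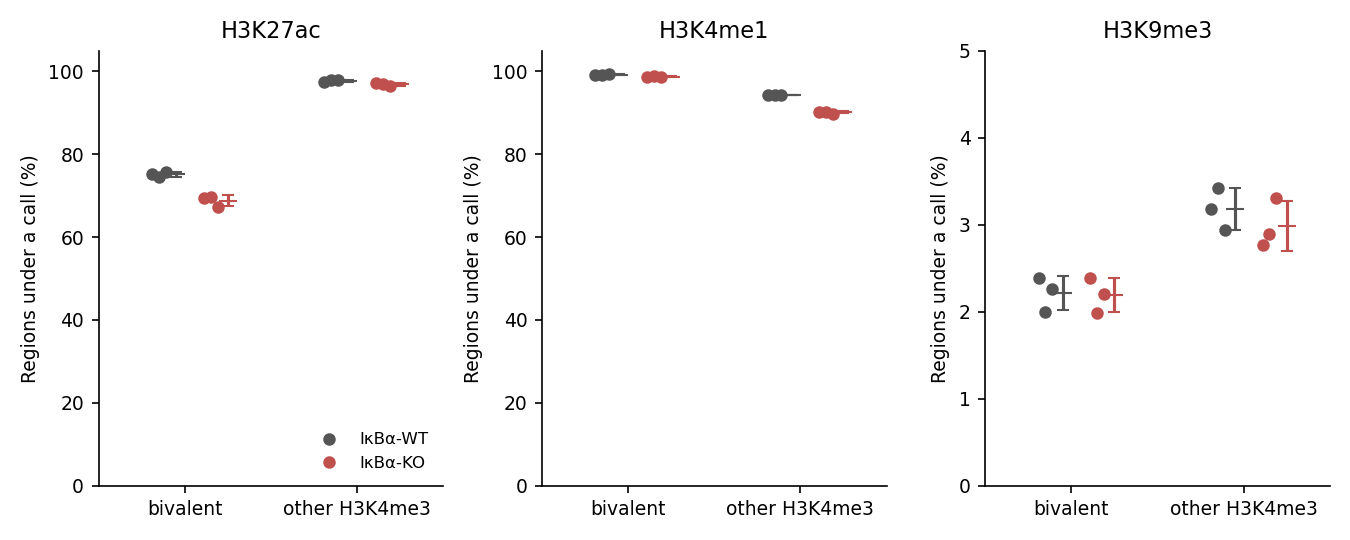
Share of regions under a call (y axis, percent, with a shorter axis for H3K9me3) for bivalent and other H3K4me3 regions, with 1 point per library (WT grey, KO red) and the mean with its SD beside the points. The KO points for H3K27ac at bivalent regions (67.3 to 69.8%) lie below the WT points (74.4 to 75.8%), and H3K4me1 at bivalent regions is near 99% in all 6 libraries.

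Read densities over the called regions, not scaled for depth, overlapped between the genotypes for H3K27me3 and H3K27ac. The median ChIP reads per kb of H3K27me3 calls over bivalent regions were 56.6, 54.6 and 54.3 in the WT and 55.3, 58.4 and 54.7 in the KO. These densities were above the median of all H3K27me3 calls, which was 28.6 to 32.3. For H3K27ac the medians were 56.5, 57.7 and 59.5 in the WT and 59.2, 59.3 and 51.9 in the KO. Divided by the median over all H3K27ac calls of the same library, they were 1.17 in each WT library and 1.15 in each KO library, without overlap (difference of the means -0.0221, exact permutation test, two-sided, p = 0.1). For H3K4me1 they were 84.3, 83.6 and 83.4 against 81.4, 81.5 and 80.5, with all KO libraries lower (difference of the means -2.58 reads per kb, exact permutation test, two-sided, p = 0.1). The part of the bivalent regions' bases under a call was 91.4% for H3K4me3 in the WT and 78.6% in the KO, 90.7% and 88.5% for H3K27me3, 76.9% and 71.3% for H3K27ac, and 94.1% and 90.5% for H3K4me1. The median H3K4me3 fold enrichment at called bivalent regions was 6.56 to 7.53 in the WT and 7.39 to 7.53 in the KO.

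Reads of H3K27ac and H3K4me1 were compared with edgeR over merged regions called in all 6 libraries with like lengths in each. Of the 8850 bivalent regions, 1718 lay in a tested H3K27ac region and 4327 in a tested H3K4me1 region, so the outcome speaks only for these. The tested regions are far wider than the bivalent regions in them, with medians of 55000 bp and 26400 bp, so most of their reads lie outside. For H3K27ac, 518 of 823 tested regions over bivalent ones passed an adjusted p of 0.05, beside 52.9% of all 4019 tested. Of these, 293 were higher in the KO and 225 lower, beside 26.4% and 26.5% of all. The split depended on the scaling and on the regions tested. Without TMM, a scaling that centres most regions on no change, 200 were higher and 312 lower, beside 733 and 1471 of all 4019. With all 3455 regions over bivalent ones that were called in all 6 libraries, and covered length as an offset, 635 passed, 482 higher and 153 lower. Over all 23884 regions of this setting, 1953 were higher and 1093 lower. For H3K4me1, 1081 of 2303 passed, beside 43.3% of all 10899. Of these, 436 were higher and 645 lower, beside 23.4% and 19.9% of all. Without TMM 286 were higher and 1039 lower, beside 1766 and 3544 of all 10899. With all 5715 regions over bivalent ones that were called in all 6 libraries, the split turned round. It was 341 higher and 208 lower with length as an offset and 867 higher and 612 lower with none. Over all 44330 regions the splits were 1787 and 728 with the offset and 6231 and 4065 with none. The splits in these alternatives thus leaned the same way over all regions and do not set bivalent ones apart. Removing TMM moved the median log2 fold change of all tested regions to -0.0491 for H3K27ac (-0.0032 with TMM) and to -0.0519 for H3K4me1 (-0.0042 with TMM).

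The changes were small. The median log2 size of the called differences was 0.17 for H3K27ac and 0.15 for H3K4me1. A difference of over 1.5 times was reached by 13 called H3K27ac regions, of which 12 lay on chromosomes 2, 8 or 12, and by 34 called H3K4me1 regions, all on these chromosomes. On chromosome 8, 20 of 27 tested H3K27ac regions over bivalent ones were called higher in the KO and 3 lower. The median log2 fold change of the 27 was 0.56, where the log2 ratio of the input was 0.42. For H3K4me1, 81 of 104 were called higher there and 11 lower, with medians of 0.50 for the ChIP reads and 0.45 for the input. Shares over all tested regions were not computed for chromosome 8 or for differences over 1.5 times. These counts therefore do not set bivalent regions apart from the rest.

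The largest H3K27ac rises were all on chromosome 8. The region over Jund (chr8:70624401-70734000), an AP-1 subunit gene, had 653, 671 and 643 CPM in the WT and 1165, 1157 and 1158 in the KO, 1.77 times as much (log2 0.82, SE 0.0176, adjusted p = 4.49e-20 by edgeR), where the input ratio was 1.38. The region over Cmip followed at 1.74 times, with an input ratio of 1.38. The largest falls were at L3mbtl3, Dpp4, Mier3 and 2300009A05Rik. L3mbtl3 (chr10:26373201-26377000), a reader of methylated histones, had 24.8, 25.6 and 26.8 CPM in the WT and 12.6, 15.4 and 16.5 in the KO (log2 -0.81, SE 0.0914, adjusted p = 2.00e-07 by edgeR), with an input ratio of 1.11. Dpp4, on chromosome 2, went from 74.9 to 82.1 CPM in the WT to 44.0 to 48.4 in the KO.

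The largest differences were also listed without chromosomes 8 and 12 and without chromosome 2, a choice made after seeing the values. Over chromosome 2 as a whole the median KO to WT input ratio was 0.959, near the 0.957 of all regions, and the low ratio given above was that of the region of Cyp24a1 and Pfdn4. For H3K27ac these were rises over Esyt3 and Mras, Prdm16, Nrp2 and Sorl1. The region over Prdm16 (chr4:154633001-154680400), a regulator of brown fat and stem cells, had 222, 199 and 203 CPM in the WT and 299, 300 and 307 in the KO (log2 0.54, SE 0.0386, adjusted p = 1.60e-10 by edgeR), with an input ratio of 1.00. Nrp2 (chr1:62700001-62833600), a semaphorin and VEGF co-receptor, had 708 to 731 CPM against 1028 to 1042. Falls were at L3mbtl3, Mier3, 2300009A05Rik and Tgfbr1, a TGF-beta receptor gene with 12.2 to 14.4 CPM in the WT and 8.62 to 10.5 in the KO, where the input ratio was 0.711.

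For H3K4me1 the rises outside those chromosomes included Zdbf2, Slc39a14 and Pcsk6. Zdbf2 (chr1:63233401-63284800), an imprinted gene, had 162, 158 and 160 CPM in the WT and 222, 220 and 228 in the KO (log2 0.48, SE 0.0251, adjusted p = 1.70e-17 by edgeR). Pcsk6 (chr7:65844201-65911000), a protease that processes TGF-beta ligands, had 200 to 208 CPM against 272 to 273. Falls were at Igsf11, at the antigen processing genes Psmb8, Psmb9 and Tap1, and at regions without a coding start on chromosomes 1 and 7. The region over Psmb8, Psmb9 and Tap1 (chr17:34185401-34202000) held 3 bivalent regions and had 66.2 to 73.3 CPM in the WT and 49.9 to 55.7 in the KO (log2 -0.40, SE 0.0481, adjusted p = 2.17e-08 by edgeR). On chromosomes 8 and 12, H3K4me1 was lowest against the WT at Apopt1 and Bag5 (log2 -1.07, input ratio 0.661) and highest at Tent4b (log2 0.84, input ratio 1.41) and Elmod2 (log2 0.84, input ratio 1.43).

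**Figure D5:**
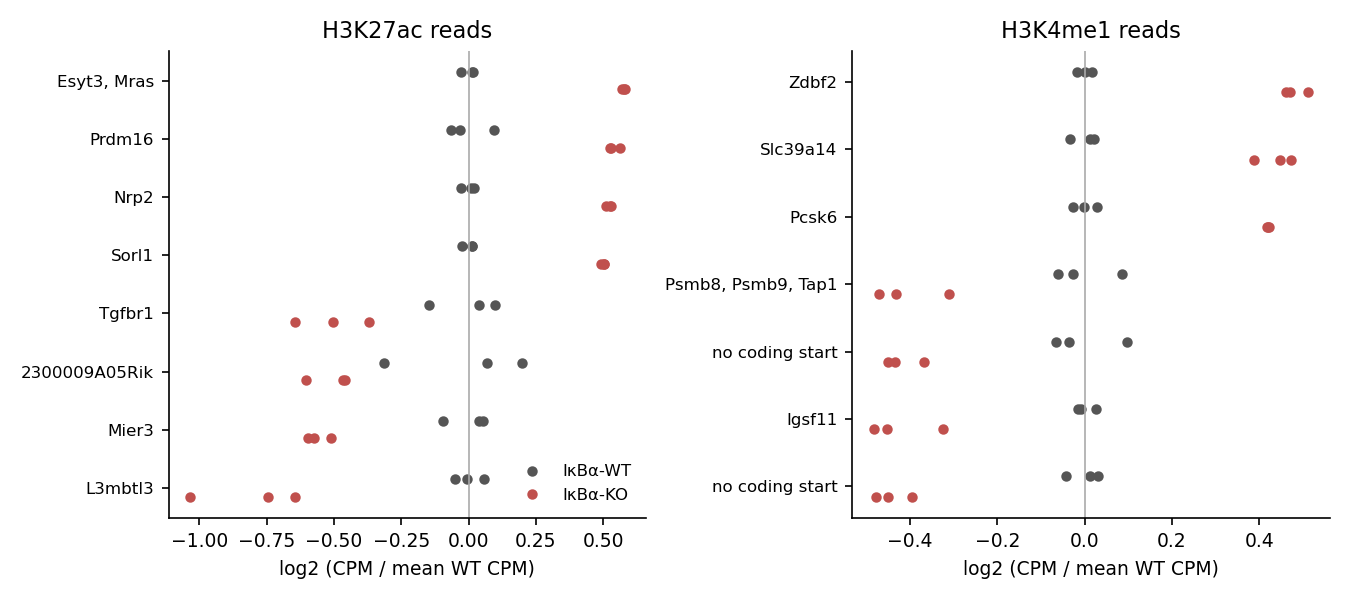
H3K27ac and H3K4me1 reads in the regions over bivalent ones named for their differences outside chromosomes 2, 8 and 12, as log2 of CPM over the mean WT CPM (x axis), with 1 point per library (WT grey, KO red). In each region the 3 KO points lie to one side of the 3 WT points, since regions were named only if this held.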

How the data were processed

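ChIP-seq of 5 histone marks was analysed in 30 libraries of ES-E14TG2a mESCs, 3 IκBα-WT and 3 IκBα-KO per mark, grouped by their labels. Per the study's methods, the authors trimmed and filtered the reads, aligned H3K4me3, H3K27me3 and H3K4me1 to GRCm38 with Bowtie2, discarded the Drosophila spike-in of H3K27me3 and removed blacklisted sequence. The aligner of H3K27ac and the processing of H3K9me3 are not given in the sources used here. The submitters' processing notes name Trim Galore 0.6.6, Bowtie2 2.4.4, SAMtools 1.15, deepTools 3.5.1, MACS2 2.2.7.1 and SICER 0.0.52. The deposited MACS2 lists of H3K4me3 give a fold enrichment over input, −log10 p-value and q-value and a score, with no counts. The depth of each library could thus not be read from them, and the H3K4me3 values and calls were not adjusted for it. The deposited epic2 lists of the other marks give per region the count of ChIP reads and of input reads, a p-value, a score and a log2 fold change over input. The authors called each library separately at an FDR or q-value of 0.05, so a list says nothing of sequence below that threshold. ChIP reads in calls were 8910890 to 10938375 per library for H3K27me3, 22943091 to 28339766 for H3K27ac, 34736939 to 35951506 for H3K4me1 and 8548342 to 12105343 for H3K9me3. Per the labels, 1 antibody served H3K27ac and H3K4me1, while the methods name another for H3K27ac.

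The bivalent regions and the gene lists were chosen with earlier results of these data known. The H3K27me3 domain of a region is the widest WT consensus piece over it. The value of a call is the highest fold enrichment of the calls over the region, or their reads per kb along their whole length. Coordinates are 1-based on GRCm38, genes are those of GENCODE M21, and a gene has a region within 1000 bp of a transcript start. CpG was counted in 500 bp around the centre. In each gene list up to 4 genes were named, those that did not keep both marks first and wider regions first. For each fate the 6 widest genes with 3 of 3 WT calls of both marks and 0 of 3 KO calls of the lost mark were named, and for each tested mark the 4 largest rises and falls without overlap between genotypes. Predicted genes were passed over, Foxl2 and Wnt16 are named only to complete counts, and some genes that the rule picks are not reported here. Printed sequences were to be the middle 200 bases. Those of Cdc42bpb and Gbx2 were moved by 122 and 103 bases to leave out UTR.

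Shares per library were compared by exact permutation tests (SciPy 1.17.1, Python 3.11.15). Merged regions called in all 6 libraries, with a shortest covered length of at least 0.8 of the longest, were tested with the edgeR 4.0.16 quasi-likelihood test in R 4.3.3 with TMM and Benjamini-Hochberg adjustment over all tested regions, and the script was tested on simulated data. SE is the log2 fold change over the root of F. CPM divide the counts of a region by the TMM-scaled sum over all tested regions. Libraries of one genotype differed by a chi-square of 1.64 to 2.92 per region, above sampling noise, and those of different genotypes by 15.0 to 27.6. Each library was counted as a sample. The chi-square cannot show whether the libraries come from separate clones, which rests on the study's methods. DESeq2 1.42.0, other thresholds, lengths, overlaps and left-out libraries served as alternatives.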

Additional observations from a re-analysis of the deposited data

How the results depend on the processing

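The 4 fate counts kept their order by size (both, H3K27me3 alone, H3K4me3 alone, neither) in all alternatives run. The number with both marks stayed within 1.5 times in each. With at least 50% of a region to be covered, 673 regions had H3K4me3 alone. With bases in 3 of 3 KO lists, 2314 had H3K27me3 alone and 150 neither. With bases in 1 of 3, 767 had H3K27me3 alone, 240 H3K4me3 alone and 12 neither. Leaving out 1 library gave 6018 to 6688 regions with both marks, 840 to 2139 with H3K27me3 alone, 278 to 593 with H3K4me3 alone and 14 to 119 with neither. Lists at an FDR or q-value of 0.001, equal numbers of calls and the left-out chromosomes kept the 4 counts within 1.5 times. Leaving out a WT library also changes the regions, and the cause was not tested further. Of 68 named genes, 16 had another fate with bases in 1 of 3 KO lists and at most 4 in any other alternative.

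The differences between bivalent and other pieces without 1 library were -25.98 to -24.56 points for H3K27ac and 6.34 to 7.15 points for H3K4me1, each with an exact p of 0.0625, the smallest that 5 libraries allow. For H3K9me3 the range was -0.981 to -0.772 points, with the same p. With 3 libraries per genotype no KO against WT share can pass 0.05, so its p says nothing about stability. The replicate numbers did not pair the libraries (correlations of same-numbered deviations -0.0818 to 0.0274). With the replicate block, the H3K27ac and H3K4me1 differences were -6.31 and -0.448 points with an exact p of 0.25, and 519 and 1089 regions passed edgeR.

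With all regions called in 6 libraries, 1037 of 3455 H3K27ac regions over bivalent ones passed with no offset, and 549 of 5715 H3K4me1 regions with length as an offset, sets that differ by construction. Over all tested regions these settings gave 5895 and 2515 calls, and the H3K4me1 set with no offset gave 10296. DESeq2 called 473 and 860 regions over bivalent ones, and leaving out 1 library 456 to 488 and 948 to 980. The filter at 50 reads removed no region. The calls at 2300009A05Rik, Tgfbr1 and the region on chromosome 1 were lost in an alternative.

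The 3 libraries per genotype, described by the study as separate clones, limit all comparisons, as do separately called lists and 1 input per genotype. A lost call is not a lost mark, since H3K4me3 lists hold no counts.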
